A study of Homo sapiens with 18 samples.

Results

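Knockdown of KDM1A was compared with control guides in hiF-T cells by bulk poly(A) RNA-seq. The 8 libraries of this comparison were chosen by their titles and treatment labels out of the 18 in the series: 4 libraries labelled KDM1A knockdown, from guides 2 and 3, and 4 labelled control guide and titled backbone, from guides 1 and 2, with 2 biological replicates of each guide. The hiF-T line consists of fibroblast-like human cells made from BJ skin fibroblasts, with telomerase (hTERT) expression that can be induced, and all libraries, controls included, carry the genotype label WT. The series calls the perturbation CRISPR knockdown. The form of Cas9, the guide sequences, the time after guide delivery, the state of hTERT induction and whether biological replicates were separate cultures are left unstated by the labels, so p-values measure the spread between these libraries, which may be technical. The other libraries of the series carry guides against CDKN1A (4 libraries) or SPP1 (6 libraries).

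KDM1A, also called LSD1, is a flavin-dependent demethylase that removes methyl groups from mono- and dimethylated H3K4, marks of active and poised promoters and enhancers. It sits with the CoREST scaffold RCOR1 and the deacetylases HDAC1 and HDAC2 in a complex that DNA-binding repressors bring to their targets, among them REST at neuronal genes outside neurons and GFI1 in blood cells. In fibroblasts it has been studied as a barrier to a change of cell identity, and its inhibitors have been used in reprogramming and in cancer, where they can raise the transcription of repeats and interferon-responsive genes.

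The targeted mRNA was lower in every KDM1A library than in every control library. KDM1A (chr1:23019443-23083689 on GRCh38, plus strand) stood at 120 and 125 CPM (counts scaled to library size with TMM factors) with control guide 1 and at 119 and 110 CPM with control guide 2. With KDM1A guide 2 it stood at 73.2 and 75.0 CPM, and with guide 3 at 50.7 and 52 CPM. The groups did not overlap, and guide 3 left less KDM1A mRNA than guide 2. Over both guides the mRNA was 52.9% of control, a log2 fold change of -0.92 (SE 0.10, adjusted p = 7.27e-06 by edgeR's quasi-likelihood test with Benjamini-Hochberg adjustment), and the exact two-sided permutation test over the 8 libraries gave p = 0.0286, the smallest that its 70 arrangements allow. The 2 most abundant KDM1A transcripts, KDM1A-201 and KDM1A-202, both protein-coding, stood at 54.7% and 56.2% of their control TPM. In the CDKN1A and SPP1 knockdowns KDM1A changed by 0.03 and -0.04 on the log2 scale.

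Among 18 other genes of KDM1A complexes that were tested, 1 was called lower (5.56%, beside 3.72% of all genes tested) and none higher (beside 5.33%). The gene was CTBP2, a corepressor that binds the complex, with a log2 fold change of -0.14 (adjusted p = 0.0413, edgeR). CTBP2 was not called with guide 3 alone, and its call was lost whichever library or guide was left out. RCOR1 stood at 44.5 ± 1.70 CPM in control and 45.0 ± 2.29 CPM in KDM1A libraries (SD, n = 4 each), HDAC1 at 106 ± 7.80 and 115 ± 2.47 CPM, and HDAC2 at 181 ± 4.30 and 171 ± 7.07 CPM, and none of these 3 was called. Among 39 enzymes of H3K4, H3K9 and H3K27 methylation and DNA demethylation, 3 fell (7.69%, beside 3.72% of all genes tested) and none rose (beside 5.33%). The falls were KDM7A (-0.85), KDM6A (-0.19) and TET2 (-0.28). Without control guide 1 their log2 fold changes were -0.64, -0.23 and -0.17 and none was called; all 3 calls were also lost without KDM1A guide 2, and that of KDM6A without control guide 2.

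A gene is called here when its adjusted p is under 0.05. Of 13527 genes tested in 1 model of all 18 libraries, 721 rose (5.33%) and 503 fell (3.72%) against control. Of these, 468 were also called higher with each guide taken alone (3.46% of all genes tested) and 242 lower with each guide (1.79%), and both guides were set against the same 4 control libraries. Among the 710 genes so called, 111 rose and 36 fell at least 2-fold. Of the 13527 genes, 1108 had every KDM1A library above every control library and 1013 had every one below. Genes called with each guide are likely to show this, so groups that do not overlap are a description and no separate support. The libraries of the comparison held 13217000 to 17016000 estimated counts. A shorter list of 209 genes that rose (1.55%) and 65 that fell (0.481%) was also called in every one of 12 fits that left out 1 of the 8 libraries or 1 of the 4 guides, a rule chosen after the values were seen. These 274 genes are called stable below, and the results lead with them. All 12 fits counted the 2 libraries of a guide as separate replicates, so stable does not mean replicated at the level of guides. With the libraries of a guide summed, 161 genes were called. LUM, COL3A1, CLDN1, EREG and PLAU were among them, whereas the stable DCN, AREG, LOXL3, LAMA5 and ITGA11 were not. Where the share of a gene list that was called is given, it is to be read beside the 5.33% and 3.72% of all genes; the lists were chosen with results of these data known, so an excess over those shares is a description.

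**Figure D1:**
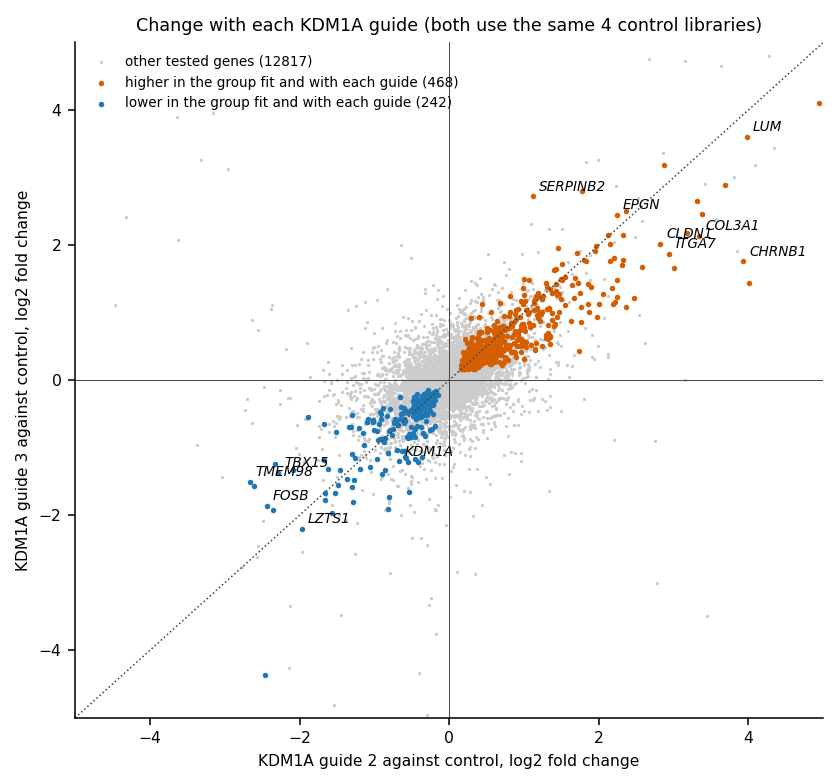
Each point is 1 of the genes tested, with its log2 fold change against control with KDM1A guide 2 (horizontal) and guide 3 (vertical); orange and blue points were called higher (468) or lower (242) in the group fit and with each guide, grey points are the other genes, and the dotted line marks equal change. Both axes use the same 4 control libraries; 23 genes lie outside the axes, which end at 5. CHRNB1 and COL3A1 lie below the line and SERPINB2 above it.

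The control guides differed from each other, and this bears on many of the falls. In these libraries 181 genes were called between control guide 2 and control guide 1, among them 33 of the 242 genes that fell with each KDM1A guide and 16 of the 468 that rose. Genes called numbered 1224 with all controls, 420 without control guide 1 and 1200 without control guide 2. Without control guide 1, 260 of the 468 rises and 89 of the 242 falls were still called. FOS, a subunit of the AP-1 transcription factor, shows the pattern: it stood at 31.7 and 31.8 CPM with control guide 1, at 9.32 and 8.47 CPM with control guide 2, and at 6.49, 5.80, 7.13 and 6.22 CPM in the KDM1A libraries. Its log2 fold change moved from -1.67 to -0.47 without control guide 1 and was no longer called (adjusted p = 0.00241 with all controls, edgeR). Its partner FOSB went from -2.49 to -1.02 in the same way. Only the control guide 1 libraries were high for FOS. Of the other falls among the 15 largest, PTPRN moved from -1.76 to -1.14 and DACT1 from -1.52 to -0.85 without control guide 1, and both lost their calls. FLT1 lost its call there with a fold change that hardly moved (-1.41 and -1.36), and also without KDM1A guide 2. SERPINB2 lost its call there (2.11 and 1.88) and without KDM1A guide 3. AKR1C1 (-1.80 and -1.41) lost its call in 9 of the 12 fits; it can share reads with near-identical AKR1C genes and is uncertain.

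The largest rises included matrix genes. LUM, which encodes the collagen-binding proteoglycan lumican, stood at 0.968, 1.25, 1.12 and 1.71 CPM in control libraries, at 21.7 and 17.9 CPM with KDM1A guide 2 and at 15.6 and 14.8 CPM with guide 3. All 4 KDM1A libraries were far above all 4 controls, with a log2 fold change of 3.79 (SE 0.29, adjusted p = 1.75e-07, edgeR), the largest rise under the naming rule. DCN, which encodes the related proteoglycan decorin and lies 28.7 kb from LUM on chromosome 12, stood at 4.91, 3.97, 8.39 and 8.70 CPM in controls and at 23.7, 24.3, 22.8 and 25.9 CPM in KDM1A libraries. Its log2 fold change was 1.90 (SE 0.33, adjusted p = 0.00111, edgeR), and the groups did not overlap although control guide 2 was higher than control guide 1. LUM and DCN were the 2 small leucine-rich proteoglycan genes called among 6 tested (33.3% higher, beside 5.33% of all genes tested).

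COL3A1, the chain of type III collagen, which is abundant in skin, stood at 5.74, 6.06, 6.74 and 7.61 CPM in control libraries, at 70.2 and 61.9 CPM with KDM1A guide 2 and at 28.4 and 28.8 CPM with guide 3. It rose with both guides, more with guide 2 (log2 3.34) than with guide 3 (2.14), and the difference between the guides was itself called (adjusted p = 5.61e-06, edgeR). Of 25 collagen chains tested, 4 rose (16%) and 1 fell (4%); COL3A1 and COL25A1, a transmembrane collagen that fell (-1.09), were the stable ones, and the rises of COL13A1, COL11A1 and COL4A5 were not stable. The main fibrillar collagens of these cells were not called: COL1A1 stood at 4493 ± 335 CPM in control and 4859 ± 867 CPM in KDM1A libraries, and COL1A2 at 2991 ± 77.9 and 3201 ± 464 CPM (SD, n = 4 each).

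Enzymes and receptors of the matrix moved in both directions. Of 43 elastic fibre, matricellular and basement membrane genes, 6 rose (14%) and 2 fell (4.65%); the stable ones were LOXL3 (0.99) and LOXL4 (1.03), lysyl oxidases that cross-link collagen and elastin, and the laminin chain LAMA5 (0.63), all higher. Among 30 matrix proteases and their regulators, PLAU, the urokinase plasminogen activator, rose from 78.2 ± 3.30 to 150 ± 1.83 CPM (SD, n = 4 each). Its log2 fold change was 0.94 (adjusted p = 1.07e-05, edgeR). MMP17 rose (0.44), ADAMTS2, which trims procollagen, fell (-0.50), and both were stable. Of 16 integrin genes 2 rose and 2 fell (12.5% each): ITGA7 (2.50), a laminin receptor of muscle, and ITGA2 (0.83) were higher, and the collagen receptor ITGA11 (-1.20) and ITGB3 (-0.81) were lower, with ITGA7 and ITGA11 stable.

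**Figure D2:**
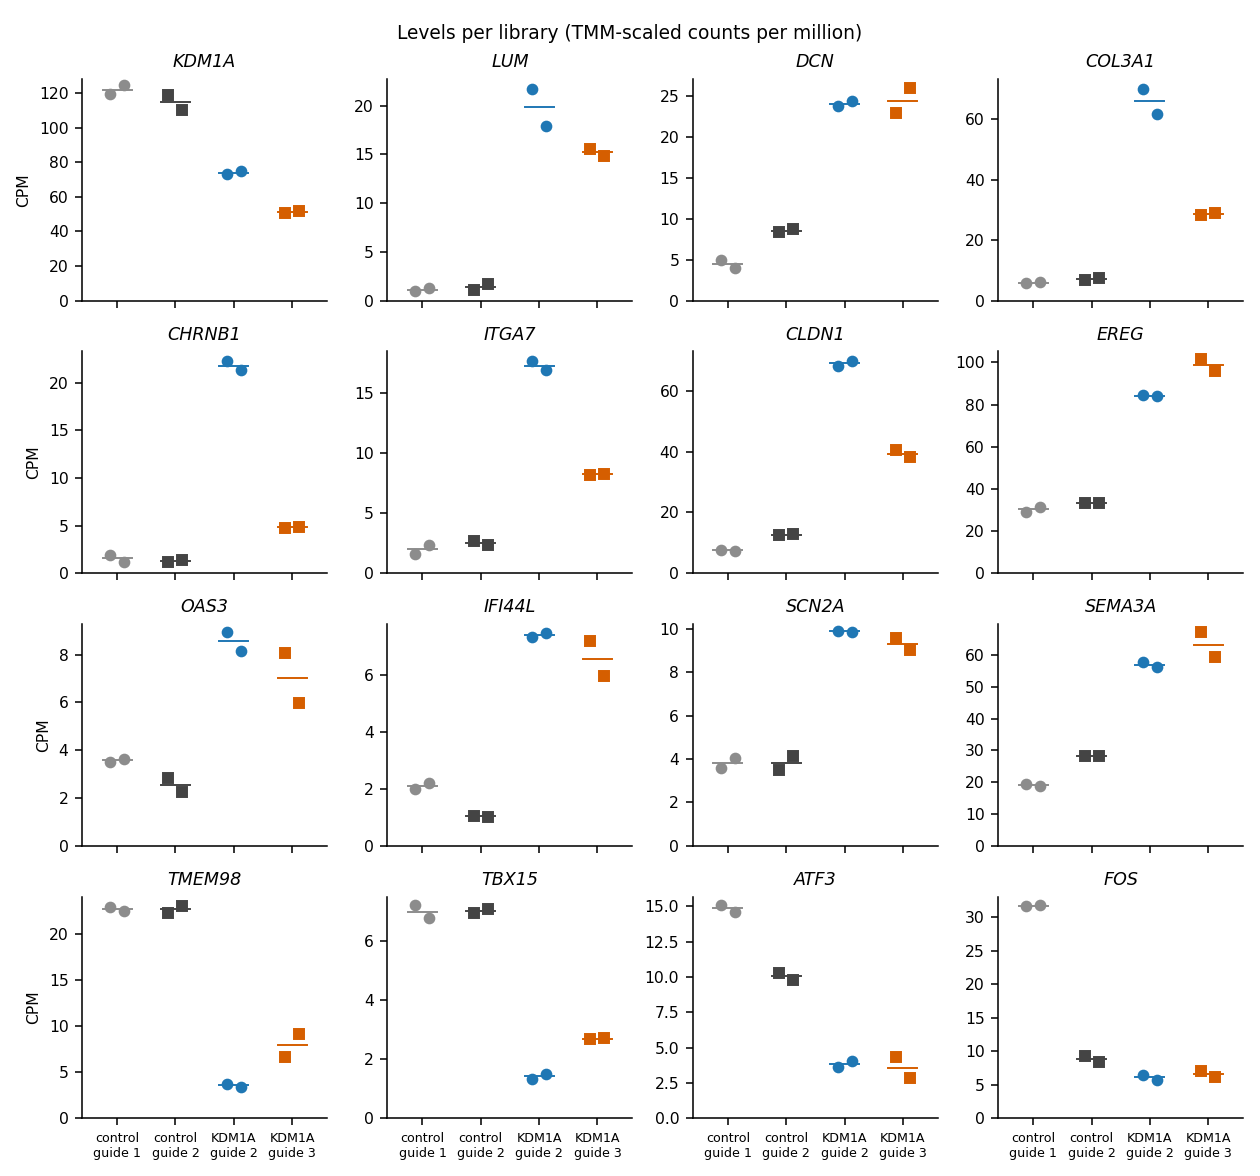
Level of 16 genes in each of the 8 libraries in TMM-scaled CPM (linear axes from 0); each point is 1 library and each line the mean of the 2 libraries of a guide. KDM1A is lower with both KDM1A guides, LUM to SEMA3A are higher, and TMEM98, TBX15 and ATF3 are lower, whereas for FOS the control libraries of guide 1 (31.7 and 31.8 CPM) stand apart from the other 6.

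Genes of skeletal muscle were among the strongest rises. CHRNB1, the beta subunit of the muscle acetylcholine receptor, stood at 1.94, 1.18, 1.19 and 1.40 CPM in controls, at 22.2 and 21.3 CPM with KDM1A guide 2 and at 4.73 and 4.90 CPM with guide 3. Its log2 fold change was 3.21 overall (SE 0.43, adjusted p = 9.39e-05, edgeR), 3.93 with guide 2 and 1.76 with guide 3. Every KDM1A library exceeded every control, and the 2 guides were well apart. TNNT1, the slow troponin T, rose from 0.559 ± 0.266 to 4.30 ± 1.19 CPM (SD, n = 4 each; log2 2.92), and the other called member of the list was ITGA7, from 2.25 ± 0.471 to 12.8 ± 5.24 CPM. In deposited TPM, which is scaled to transcript length, ITGA7 rose from a mean of 2.71 to 6.77, a smaller rise than in CPM. The 3 called genes made 27.3% of the 11 muscle genes tested, beside 5.33% of all genes tested called higher. The other 8 were not called, and the list's median log2 fold change was -0.13, against -0.01 over all genes tested.

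Several genes of epithelial junctions and keratin filaments rose. CLDN1, a claudin of tight junctions, stood at 7.74, 7.31, 12.4 and 12.9 CPM in control libraries, at 68.3 and 69.9 CPM with guide 2 and at 40.5 and 38.3 CPM with guide 3, a log2 fold change of 2.43 (SE 0.24, adjusted p = 2.39e-06, edgeR). All KDM1A libraries were higher than all controls. JUP, the plakoglobin of desmosomes and adherens junctions, rose from 1.80 ± 0.352 to 8.26 ± 2.91 CPM (log2 2.19) and PERP, a desmosome-associated membrane protein, from 61.3 ± 6.47 to 107 ± 6.93 CPM (0.81), whereas DSP, the desmosomal plaque protein desmoplakin, fell from 179 ± 23.5 to 85.2 ± 7.61 CPM (-1.07; SD, n = 4 each). These 4 genes were stable, and of 20 tight junction and desmosome genes tested 4 rose (20%) and 1 fell (5%). Of 18 keratin and intermediate filament genes 4 rose (22.2%) and none fell; KRT15 (1.23), KRT19 (1.62) and NES (2.90), the intermediate filament of progenitor cells, were stable, all from mean levels under 4 CPM in control.

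Most markers of other skin cells were under 1 TPM in all 8 libraries, and a few were well above it. Of 12 keratinocyte markers 3 were at 0 TPM in all 8 libraries, KRT5, KRT1 and SPRR1B, and 8 were under 1 TPM in all 8. Their summed level ran from 145 to 169 TPM in control and from 169 to 180 TPM in KDM1A libraries, nearly all of it KRT10, which was not called (0.10, adjusted p = 0.54, edgeR); its part in the rises was not tested. The 13 fibroblast markers summed to 25590 to 27043 TPM in control and 25284 to 26663 TPM in KDM1A libraries. Of the 12 tested 1 was called higher, PDGFRB (0.51), or 8.33%, beside 5.33% of all genes tested. THY1, a surface marker of many fibroblasts, stayed at 0 to 0.718 TPM. Of 8 melanocyte markers 4, and of 12 endothelial and leukocyte markers 9, stayed under 1 TPM in all 8 libraries, with summed levels of 8.4 to 10.9 and 9.0 to 13.2 TPM, and of 94.0 to 121 and 82.7 to 104 TPM, in control and KDM1A libraries. The melanocyte sum was mostly KIT (4.48 to 7.91 TPM over the 8 libraries), and the other sum was nearly all CD68 (57.4 to 86.5 TPM) and TEK (24.1 to 33.3 TPM), genes that are not restricted to 1 cell type. In such bulk libraries a change in the share of cells that express a gene and a change per cell cannot be told apart.

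Ligands of the EGF receptor rose together from 1 stretch of chromosome 4. EREG (epiregulin) stood at 29.2, 31.4, 33.4 and 33.2 CPM in control libraries and at 84.4, 84.2, 102 and 95.8 CPM in KDM1A libraries, without overlap, for a log2 fold change of 1.52 (SE 0.13, adjusted p = 6.08e-07, edgeR). EPGN (epigen), 49.8 kb away, rose from 3.03 ± 1.36 to 14.4 ± 1.30 CPM (2.26), and AREG (amphiregulin), 56.4 kb beyond EREG, from 3.61 ± 0.447 to 7.07 ± 0.939 CPM (0.97; SD, n = 4 each). All 3 were stable. Of 13 genes of the family tested 4 rose (30.8%) and 1 fell (7.69%). The receptor genes ERBB4 (1.15) and ERBB2 (-0.44) were at 0.91 and -0.54 without control guide 1 and not called there or without KDM1A guide 2, and ERBB2 was not called without control guide 2 either. EGFR itself was not called, at 232 ± 21.7 CPM in control and 211 ± 31.8 CPM in KDM1A libraries. The bases before the RefSeq start of each ligand gene on GRCh38 are given because the 3 genes moved together, with the letters TATAAA in capitals: EPGN at chr4:74308370-74308469, EREG at chr4:74365045-74365144 and AREG at chr4:74445036-74445135, all on the plus strand.
EPGN: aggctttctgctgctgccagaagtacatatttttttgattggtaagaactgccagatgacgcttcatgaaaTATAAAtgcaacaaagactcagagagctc
EREG: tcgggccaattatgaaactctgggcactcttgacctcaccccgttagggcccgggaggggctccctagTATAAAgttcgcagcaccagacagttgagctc
AREG: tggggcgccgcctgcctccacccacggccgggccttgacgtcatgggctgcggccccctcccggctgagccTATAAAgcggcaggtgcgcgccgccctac
The letters begin 29, 32 and 29 bases before the start. TATAAA, searched on both strands in windows of 300 bases around the start, 250 of them before it, was in 5.71% of the 10344 promoters that could be matched to tested genes, and a match is a description of the letters only.

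Genes of the TGF-beta and BMP pathway that were called were mostly lower. Of 34 tested, 8 fell (23.5%) and 1 rose (2.94%), and 4 of the falls were stable. The list's median log2 fold change was -0.05, against -0.01 over all genes tested, with 15 estimates above 0 and 19 below. It was 0.01 with guide 2 and -0.30 with guide 3. Against the same controls the median was -0.09 in the CDKN1A knockdown and -0.33 in the SPP1 knockdown. PMEPA1, a target that restrains the pathway, stood at 14.2, 15.3, 7.99 and 6.14 CPM in control libraries and at 3.09, 3.93, 3.35 and 3.08 CPM in KDM1A libraries, so all KDM1A libraries were lower, and control guide 1 lay well above control guide 2. Its log2 fold change was -1.69 with all controls and -1.07 without control guide 1. The receptor TGFBR1 fell from 32.6 ± 2.78 to 24.7 ± 1.63 CPM (-0.40) and the distant family member GDF15 from 131 ± 11.4 to 81.4 ± 3.64 CPM (-0.69; SD, n = 4 each). The ligand gene TGFB1 was not called (-0.13).

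WNT and retinoid genes gave a small number of clear changes. WNT16, a secreted WNT ligand, rose from 7.49 ± 1.29 to 23.4 ± 4.04 CPM (log2 1.64) and DKK2, a secreted WNT modulator, from 3.38 ± 0.497 to 7.26 ± 0.780 CPM (1.10), while TCF7L1, a transcriptional repressor of the pathway, fell from 16.8 ± 0.643 to 12.1 ± 0.606 CPM (-0.47; SD, n = 4 each). Of 23 genes of this list 4 rose (17.4%) and 2 fell (8.7%). In the retinoid list of 11 genes 2 rose and 2 fell (18.2% each): ALDH1A1, which makes retinoic acid, rose from 5.05 ± 0.894 to 14.5 ± 1.77 CPM (1.52), RDH10, which supplies its substrate, fell from 11.6 ± 0.262 to 7.80 ± 0.602 CPM (-0.57), and CRABP2 (1.07) and RXRA (-0.39) were called but not stable. IGFBP4 (0.48) and STC1 (0.85), secreted regulators of IGF signalling, were stable rises among 12 genes tested, of which 3 rose (25%) and none fell.

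Neuronal genes that were called were mostly higher. Of 36 tested, 8 rose (22.2%) and 2 fell (5.56%); 7 of the rises were stable and neither fall was. SCN2A, a neuronal sodium channel, stood at 3.59, 4.04, 3.50 and 4.12 CPM in controls and at 9.90, 9.86, 9.60 and 9.05 CPM in KDM1A libraries, a log2 fold change of 1.33 (SE 0.14, adjusted p = 6.73e-06, edgeR). SYT11, a synaptotagmin of vesicle membranes, stood at 42.9, 46.8, 42.1 and 44.4 CPM and at 108, 111, 93.1 and 90.2 CPM, a log2 fold change of 1.19 with the smallest adjusted p of the named genes (2.62e-08, edgeR). Control libraries were close together for both genes and the groups far apart. SEMA3A (1.34) and SEMA3D (1.08), secreted guidance cues, NTN4 (0.71), a netrin, SYT1 (0.54) and NLGN1 (0.45), a synaptic adhesion protein, were the other stable rises. The list's median was 0.15, against -0.01 over all genes tested, and 21 of its 36 estimates were above 0. With each guide taken alone the median was lower, at 0.08 with guide 2 and 0.04 with guide 3. The 36 genes tested come from 73 listed. Of 26 potassium channel subunits 4 rose (15.4%) and 2 fell (7.69%), with KCNN4 (1.73) and KCNT2 (1.34) as stable rises and KCNG1 (-1.70) as a stable fall.

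Genes of the type I interferon response rose in part. Of 36 tested, 12 rose (33.3%) and none fell, 6 of the rises were stable, and 7 were called without control guide 1. IFI44L stood at 2.00, 2.23, 1.06 and 1.01 CPM in control libraries and at 7.36, 7.49, 7.2 and 5.97 CPM in KDM1A libraries, a log2 fold change of 2.14 (SE 0.28, adjusted p = 5.95e-05, edgeR). Its neighbour IFI44, 3.7 kb away, rose from 2.97 ± 0.264 to 5.71 ± 0.925 CPM (0.94), and OAS3, an activator of RNase L, from 3.06 ± 0.641 to 7.79 ± 1.28 CPM (1.34; SD, n = 4 each). USP18 (0.80), a brake on the receptor, PARP14 (0.53) and SAMD9L (0.76), an antiviral factor, were the other stable rises. Classical members of the response were not called: IFIT1 stood at 3.13 ± 0.588 CPM in control and 2.33 ± 0.387 CPM in KDM1A libraries, ISG15 at 8.46 ± 0.705 and 8.30 ± 1.69 CPM, and MX1 at 0.837 ± 0.254 and 0.909 ± 0.387 CPM (SD, n = 4 each).

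Related lists moved in the same direction where they were called. Of 21 genes of double-stranded RNA and DNA sensing 4 rose (19%) and none fell, with SAMHD1, a nucleotide-cleaving restriction factor, stable at 23.6 ± 0.738 CPM in control and 40.1 ± 5.31 CPM in KDM1A libraries (0.76) and the RNA sensor RIGI (0.65) called with each guide but not stable. Of 12 genes that support class I antigen presentation 4 rose (33.3%) and none fell, with the peptide-trimming protease ERAP2 stable (0.54). Of 13 genes listed with complement 3 rose (23.1%) and none fell, all stable, among them CLU (0.83) and C1QTNF5 (1.35). C1QTNF5 is a C1q-related protein and not itself a complement component, and the share of 23.1% includes it.

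The bases before the RefSeq starts of 3 of the interferon response genes are given because the rises within this list were uneven, with matches to the core of the interferon-stimulated response element, GAAA, then any 2 bases, then GAAA, read on either strand, in capitals: IFI44L at chr1:78620264-78620447, IFI44 at chr1:78649689-78649788 and OAS3 at chr12:112938311-112938473, all on the plus strand of GRCh38.
IFI44L: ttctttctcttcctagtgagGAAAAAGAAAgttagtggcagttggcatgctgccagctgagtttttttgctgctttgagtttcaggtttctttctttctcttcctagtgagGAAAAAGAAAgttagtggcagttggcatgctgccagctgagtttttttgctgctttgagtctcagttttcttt
IFI44: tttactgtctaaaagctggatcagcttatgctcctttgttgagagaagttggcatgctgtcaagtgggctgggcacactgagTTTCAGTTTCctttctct
OAS3: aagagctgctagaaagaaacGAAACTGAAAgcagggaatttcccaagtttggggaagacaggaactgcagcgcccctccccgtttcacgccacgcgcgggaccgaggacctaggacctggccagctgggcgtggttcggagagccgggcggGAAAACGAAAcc
The matches begin 164 and 73 bases before the start in IFI44L, 18 in IFI44 and 143 and 12 in OAS3. Of the 30 tested members of the list with a promoter to search, 21 held the letters, and of the 11 called members with one 8 did, against 2.80% of the 10344 promoters. The uncalled IFIT1, ISG15 and MX1 held them as well.

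Of the p53 targets and stress response genes that were called, nearly all were lower. Of 32 p53 targets 13 fell (40.6%) and none rose, 9 with each guide, but 2 without control guide 1; the list's median log2 fold change was -0.28 with all controls and -0.20 without control guide 1. SESN2, which restrains mTORC1 under stress, and GDF15 were the stable ones. SESN2 is also counted in the stress response list and GDF15 in the TGF-beta list. The p53 list does not hold every p53 target, and it leaves out PERP, a stable rise counted with the junction genes. SESN2 stood at 13.8, 14.5, 12 and 13 CPM in controls and at 6.41, 7.24, 7.13 and 7.29 CPM in KDM1A libraries (log2 -0.92, SE 0.11, adjusted p = 3.35e-05, edgeR). CDKN1A and MDM2, the best-known targets, were not called at -0.33 and -0.29. Against the same 4 control libraries the list's median was 0.22 in the CDKN1A knockdown and -0.29 in the SPP1 knockdown. SESN2 and GDF15 were called lower in the SPP1 knockdown too (-0.52 and -0.78). Against the SPP1 knockdown, the KDM1A libraries were called lower in SESN2 (-0.40) but not different in GDF15 (0.10).

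Of 35 genes of the integrated stress response and amino acid supply 9 fell (25.7%) and 2 rose (5.71%), and 4 falls and 1 rise were called without control guide 1. ATF3, a stress-induced transcription factor, stood at 15.1, 14.6, 10.3 and 9.79 CPM in control libraries and at 3.64, 4.05, 4.36 and 2.83 CPM in KDM1A libraries, a log2 fold change of -1.74 (SE 0.24, adjusted p = 0.000113, edgeR). KDM1A libraries were all below the controls, and control guide 2 lay below control guide 1. ATF3 was also called lower in the SPP1 knockdown (-1.45) against the same control libraries. Set against each other, the KDM1A and SPP1 knockdowns were not called different in ATF3 (-0.29), whereas KDM1A and CDKN1A were (-1.08). CHAC1, a glutathione-degrading enzyme induced by ATF4, fell from 6.98 ± 0.495 to 4.55 ± 0.276 CPM (-0.62; SD, n = 4 each) and was stable with ATF3 and SESN2. ATF4 itself (-0.35), DDIT3 (-0.70), ASNS (-0.53) and PHGDH (-0.53) were called with each guide but not stable, and STC2 (0.48), a secreted glycoprotein, was the stable rise. The bases before the starts of the 2 stable genes whose promoters match TGATGNAA, a form of the site bound by C/EBP and ATF factors, are ATF3 at chr1:212565196-212565406 and CHAC1 at chr15:40953242-40953470, both on the plus strand, with the match in capitals.
ATF3: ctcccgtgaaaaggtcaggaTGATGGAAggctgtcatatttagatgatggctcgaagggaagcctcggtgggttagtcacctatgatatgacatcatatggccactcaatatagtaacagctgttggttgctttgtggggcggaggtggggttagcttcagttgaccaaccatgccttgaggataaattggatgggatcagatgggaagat
CHAC1: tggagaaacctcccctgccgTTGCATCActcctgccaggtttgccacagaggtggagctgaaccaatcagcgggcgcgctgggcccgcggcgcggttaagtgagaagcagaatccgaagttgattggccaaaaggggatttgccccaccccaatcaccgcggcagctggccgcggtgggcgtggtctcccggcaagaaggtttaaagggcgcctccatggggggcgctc
The matches begin 191 and 209 bases before the start. The ATF3 bases lie at the 5' end of the gene (chr1:212565334-212620777), and bases before any start further inside it are not given. Of the 27 tested members of the list with a promoter to search 6 held these letters on either strand, and of the 9 that fell 4 did, against 1.78% of the 10344 promoters.

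**Figure D3:**
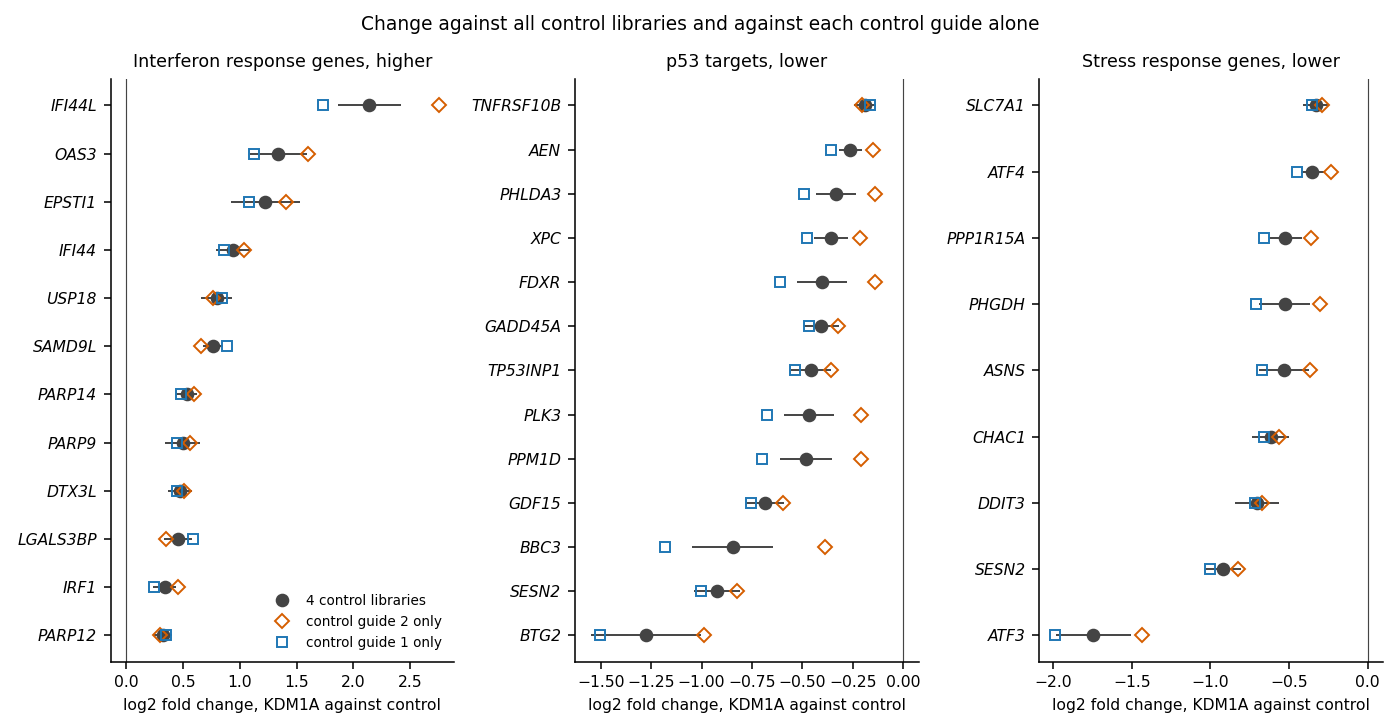
Log2 fold change of the called interferon response genes (left), p53 targets (middle) and stress response genes (right) with KDM1A knockdown against all 4 control libraries (filled circles, bars ± 1 SE), against the libraries of control guide 2 alone (open diamonds) and against those of control guide 1 alone (open squares). Several p53 targets move close to 0 against control guide 2, such as FDXR at -0.14, whereas SESN2 (-0.83) and ATF3 (-1.43) stay below 0.

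Transcription factors of mesenchyme and limb split in both directions. Of 50 tested, 5 rose (10%) and 9 fell (18%). TBX15, a T-box factor of skeletal and fat development, stood at 7.19, 6.76, 6.94 and 7.07 CPM in controls, at 1.35 and 1.5 CPM with KDM1A guide 2 and at 2.69 and 2.70 CPM with guide 3, a log2 fold change of -1.75 (SE 0.18, adjusted p = 4.98e-06, edgeR). GATA6 fell from 3.29 ± 0.282 to 1.5 ± 0.345 CPM (-1.13) and OSR1, an odd-skipped factor of embryonic mesenchyme, rose from 11.8 ± 1.26 to 23.4 ± 2.55 CPM (0.99; SD, n = 4 each), and these 3 were the stable ones. Among secreted cytokines and prostaglandin genes, IL11 (-0.81) and PTGS2 (-1.02), the inducible cyclooxygenase, were stable falls among 31 genes of which 2 rose (6.45%) and 4 fell (12.9%). SPP1, which encodes osteopontin and is itself a target of other guides in the series, rose from 64.6 ± 7.28 to 132 ± 4.17 CPM (1.03), a call that was not stable.

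Outside these lists, TMEM98, a membrane protein, gave a large fall, larger with guide 2 (-2.67) than with guide 3 (-1.51). It stood at 22.9, 22.5, 22.3 and 23.1 CPM in the 4 controls, at 3.72 and 3.43 CPM with KDM1A guide 2 and at 6.69 and 9.17 CPM with guide 3, a log2 fold change of -1.97 (SE 0.21, adjusted p = 6.73e-06, edgeR). LZTS1, a leucine zipper protein, fell from 4.55 ± 0.728 to 1.06 ± 0.106 CPM (-2.09; SD, n = 4 each). The kinesin KIF26B (-1.46), the sialyltransferase ST6GAL2 (-1.57) and the synaptotagmin relative SYT14 (-1.42) were the other stable falls among the 15 largest. The stable rises among the 15 largest also held LRRC17 (2.13), a secreted leucine-rich protein, LAT2 (2.03), an adaptor of immune cell receptors, CDA (2.00), cytidine deaminase, RGS5 (1.97), a regulator of G protein signalling known from pericytes, A4GALT (1.95), the synthase of the glycolipid Gb3, and IL21R (1.95), a cytokine receptor. In deposited TPM, scaled to transcript length, RGS5 (means of 14.5 and 39.5) and A4GALT (7.64 and 16.5) rose less than in counts. For LRRC17, LAT2, CDA and IL21R the rises in TPM and in counts were close. ITGA7, LRRC17 and FOSB overlap another tested gene, so reads of each pair could be divided between them.

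Few genes of proliferation were called. None of 34 G1/S and replication genes was called by edgeR, with 5 at an unadjusted p under 0.05 and 1 called by DESeq2. Of 33 G2/M genes 1 was called, CDC25B (0.21), or 3.03% higher, beside 5.33% of all genes tested. MKI67, a proliferation marker, stood at 497 ± 40.0 CPM in control and 507 ± 52.4 CPM in KDM1A libraries (SD, n = 4 each). None of 13 NOTCH genes was called by edgeR or DESeq2 (3 at an unadjusted p under 0.05), none of 18 heat shock chaperone genes by edgeR (5 at an unadjusted p under 0.05, 1 called by DESeq2), and none of 13 mitochondrially encoded mRNAs by either tool or at an unadjusted p under 0.05. TERT, which in this line also comes from a transgene, was called lower (-0.32) but was not stable.

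**Figure D4:**
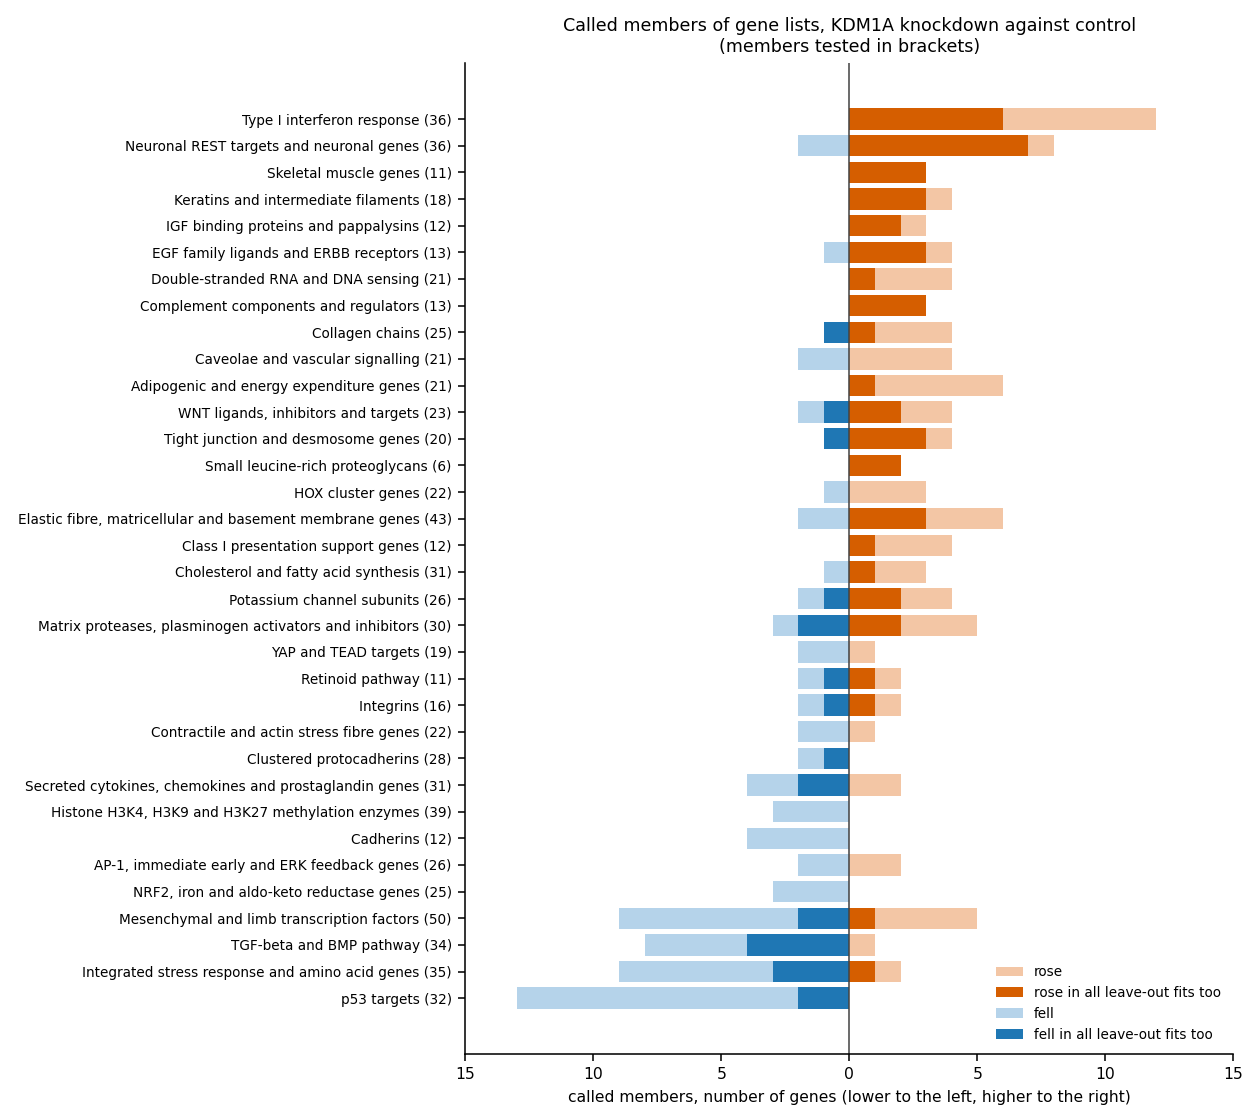
Number of called members in each gene list with at least 2 calls, higher to the right and lower to the left, with the number of members tested in brackets; dark bars count the members that were also called with each guide and in all 12 fits that left out a library or a guide. The interferon list has 12 rises, 6 of them stable, and the p53 list 13 falls, 2 of them stable.

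Most of the large rises started from low levels. Of the 111 genes that rose at least 2-fold and were called with each guide, 79 (71.2%) had a mean under 5 CPM in control, as against 24.3% of all genes tested and 13 of the 36 that fell at least 2-fold (36.1%). A gene near 0 in control passed the filter on low counts through the libraries where it was high, so this share is a description and no support for a direction.

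Some rises also lay next to each other in the genome. The nearest tested genes on either side of the 468 genes that rose with each guide, counted where they did not overlap and lay within 100 kb, numbered 583, and 15.3% of them were called higher and 3.43% lower, beside 5.33% and 3.72% of all genes tested. For the 242 genes that fell, 7.04% of 270 such neighbours were called lower and 5.19% higher. A pair in which both genes were called with each guide in that direction entered these counts from each side, which raises the shares. The shares of all genes tested also include genes with no neighbour within 100 kb. In 39 adjacent pairs both genes were called with each guide in the same direction, 33 of them higher. LUM with DCN, EPGN with EREG and EREG with AREG, TMEM102 with CHRNB1 (1.45 and 3.21), KRT15 with KRT19 and IFI44L with IFI44 were among the pairs in which both rises were stable. Some neighbours are members of 1 gene family, and no test was made of these counts.

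The 2 guides differed in the size of the change for part of the genes. Between guide 3 and guide 2 themselves 832 genes were called (6.15% of those tested), and 105 of the 710 genes called with each guide were among them. Of these 105, 76 changed more with guide 2 and 29 with guide 3, although guide 3 left less KDM1A mRNA (50.7 and 52 CPM) than guide 2 (73.2 and 75.0 CPM). The split was 62 to 9 among the rises and 14 to 20 among the falls. CHRNB1, COL3A1, CLDN1, JUP and IL21R rose more with guide 2 and SERPINB2 rose more with guide 3, whereas for LUM, DCN, EREG and IFI44L the difference between guides was not called. With guide 2 set against control guide 1 and guide 3 against control guide 2, so that no library was shared, Pearson's r of the differences in mean log2 CPM was 0.35 and Spearman's rho 0.30 across the 13527 genes, and 0.30 and 0.26 with the control guides exchanged; genes are not independent replicates, and these values are descriptions.

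The largest changes can also be set against the other knockdowns of the series. Against the mean of the CDKN1A and SPP1 knockdowns, 10 libraries, the KDM1A libraries differed in 13.6% of genes. This comparison uses the same 4 KDM1A libraries as the one against control, so the values are given side by side and no overlap of the calls is read from them. LUM differed by 3.27 on the log2 scale, CHRNB1 by 3.16, TMEM98 by -1.87 and TBX15 by -1.67 (adjusted p = 4.96e-09, 2.2e-06, 2.15e-06 and 1.29e-06, edgeR). FOS differed by -0.40 and FOSB by -0.77, neither of them called. ATF3 and GDF15 differed from that mean by -0.69 and -0.61, both called. From the SPP1 knockdown alone they differed by -0.29 and 0.10, neither called. Some other stable genes were called in another knockdown too, in the same direction against the same controls. EPGN rose with CDKN1A (0.95) and SPP1 (1.41) knockdown, and COL3A1 with SPP1 knockdown (1.10). LZTS1 (-1.11), DSP (-0.73) and ST6GAL2 (-0.99) fell with SPP1 knockdown, and ADAMTS2 (-0.56) with CDKN1A knockdown. Against that mean, KDM1A libraries were called different in all but ADAMTS2 (-0.16). Against SPP1 alone, DSP (-0.34) and ST6GAL2 (-0.58) were not called.

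**Figure D5:**
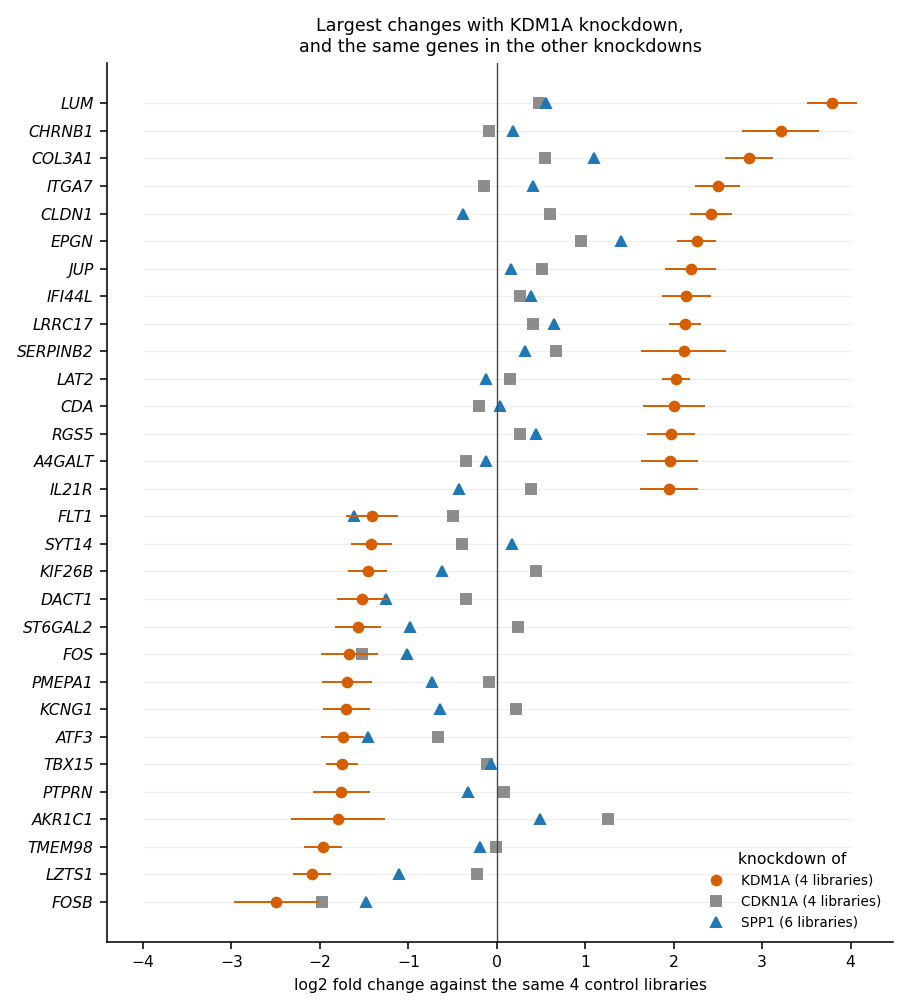
Log2 fold change against the same 4 control libraries of the 15 largest rises and 15 largest falls of KDM1A knockdown, in the KDM1A (orange, bars ± 1 SE), CDKN1A (grey) and SPP1 (blue) knockdowns. LUM stands at 3.79 with KDM1A and at 0.48 and 0.56 in the other 2, whereas FOS stands at -1.67, -1.52 and -1.01.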

How the data were processed

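The authors deposited 1 kallisto table per library, named as such in the submitters' processing notes, which also name the builds GRCh38 and hg38. Each table gives an estimated (expected) count, a TPM value and an effective length per Ensembl transcript, per the file headers; the deposited estimated counts are not normalized, and the deposited TPM values are scaled to transcript length and depth. For kallisto, the version, the settings and the release of its index: not given in the sources used here.

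Transcripts were matched by Ensembl identifier to GENCODE 29 (35579 genes), and counts were summed per gene and rounded to whole numbers. Genes were kept by filterByExpr with a count minimum of 10, scaled by TMM and fitted with edgeR 4.0.16 in R 4.3.3, 1 coefficient per group over all 18 libraries, with quasi-likelihood tests and Benjamini-Hochberg adjustment over all 13527 genes; a second fit had 1 coefficient per guide and set each KDM1A guide against the mean of the control guides. CPM values are TMM-scaled, and levels are compared between genes nowhere. Depth was 13217000 to 17016000 counts per library, and the biological coefficient of variation was 9.32% within groups and 6.92% within guides. No unassigned column was used. In the KDM1A libraries, counts differed less within a guide than between guides; the 2 libraries of control guide 1 differed from each other about as much as libraries of different guides did.

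Genes named are KDM1A, the 15 largest rises and 15 largest falls among genes called with each guide at a mean log2 CPM of at least 1, called members of the gene lists, and neighbours of the largest changes; uncalled list members named were chosen after their values were seen. The members, the 47 gene lists and the tests were chosen with earlier results of these data known, and lists are described by counts with no test. Alternatives were RLE factors, no filter, DESeq2 1.42.0, the 2 groups alone, a replicate block, guide coefficients, limma 3.58.1 voom with guide as a random block, counts summed per guide, a transcript length offset, and leaving out each library or guide. Promoter letters come from RefSeq on GRCh38.p14, matched by symbol to 10344 of 13518 tested symbols (76.5%), too few for a comparison of base composition over all called genes, which is void for that reason and not given. Genes of the MHC region, whose reads can be divided among haplotype copies, are not named, and a few genes are not reported here.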

Additional observations from a re-analysis of the deposited data

Results flagged for a closer look

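For 37 named genes called with each guide, besides KDM1A itself, the difference between the 2 KDM1A guides was called in edgeR's fit of single guides, and the values given are guide 3 minus guide 2 on the log2 scale. KDM1A mRNA was lower with guide 3, at -0.53 relative to guide 2. These genes rose with both guides and rose more with guide 2: CHRNB1 (-2.18), IL21R (-1.25), COL3A1 (-1.20), ITGA7 (-1.07), KCNN4 (-1.05), TM7SF2 (-1.02), JUP (-0.91), LOXL3 (-0.82), CLDN1 (-0.81), LOXL4 (-0.72), CLU (-0.70), LAT2 (-0.60), COL11A1 (-0.60), PDGFRB (-0.47), STC2 (-0.40), SAMHD1 (-0.32), MMP17 (-0.32), LAMA5 (-0.28), IGFBP4 (-0.28) and SYT11 (-0.25). The genes that rose more with guide 3 were SERPINB2 (1.60) and ITGA2 (0.70). Among the falls, MMP3 (1.34), TMEM98 (1.16), KCNG1 (1.09), TBX15 (0.91), FST (0.64), IL11 (0.51) and PTGS2 (0.37) fell more with guide 2. The falls of ITGA11 (-0.92), ITGB3 (-0.70), TGFBI (-0.54), FGF2 (-0.50), CCN2 (-0.48), WNT5B (-0.30), PDLIM7 (-0.29) and GADD45A (-0.22) were larger with guide 3. The labels name no difference between the guides other than their number.

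In 8 of 308 sets of 4 libraries, 1 library lay far from the other 3 by Dixon's ratio of its gap to the whole range on the log2 scale. At the cutoff used chance alone flags about 1 set in 20, so fewer sets were flagged than chance would give. Among control libraries, PERP was high in guide 2 replicate 2 (70.9 CPM against 56.8 to 58.8, ratio 0.851), as was ERAP2 (34.2 against 28.1 to 28.9, 0.865). PARP14 was high in control guide 1 replicate 2 (20.6 CPM against 17.7 to 18.1, 0.849), UCHL1, a neuronal deubiquitinase, was low there (595 against 663 to 675, 0.861), and LGR4, a receptor of the WNT pathway, was low in control guide 1 replicate 1 (39.05 against 41.6 to 42.1, 0.837). Among KDM1A libraries, SYT14 (0.727 CPM against 0.998 to 1.03, 0.909) and SPP1 (126 against 133 to 135, 0.839) were low in guide 3 replicate 1, and KCNT2 was low in guide 3 replicate 2 (2.01 against 2.53 to 2.62, 0.873). PERP, ERAP2, PARP14, SYT14 and KCNT2 were called with each of these libraries left out.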

How the results depend on the processing

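The log2 fold change of KDM1A mRNA ran from -1.20 to -0.68 over all alternatives and was called in each, including the deposited TPM (-0.95). No called change of a named gene reversed its sign in any alternative. Genes called numbered 1224 (721 higher and 503 lower) as reported, and 2229 (1191 and 1038) with a coefficient per guide, 680 (446 and 234) with voom and guide as a random block, 161 (132 and 29) with the libraries of a guide summed and 568 (371 and 197) with a transcript length offset. Without control guide 1 the counts were 420 (300 and 120), and without KDM1A guide 2 738 (442 and 296), beside 1200 without control guide 2 and 1135 without KDM1A guide 3, fits with as few libraries; the cause was not tested. Leaving out 1 library gave 773 to 1121 genes, 524 to 666 higher and 249 to 455 lower, the lowest without control guide 1 replicate 2. Genes called with both guides in 1 direction numbered 763, with 391 without control guide 1 and 886 without control guide 2. Of the named genes other than KDM1A that were called, 88 of 203 kept their call without control guide 1, 47 with guide sums, 129 with the length offset and 200 with DESeq2.

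The replicate numbers did not pair the libraries: deviations of libraries with the same number correlated from -0.117 to 0.0733 over 36 pairs of guides. A replicate block gave 1112 genes called (677 and 435) and 716 with both guides. Guide-level replication is 2 guides against 2, so sums per guide limit what can be called, and changes of genes under a few CPM carry wide counting error.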
